A study of Mus musculus with 52 samples.

Results

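The response of mouse extended pluripotent stem cells (EPSCs) to 25 passages in a totipotency medium was set against their response to 2 days in the same medium. Each response was the log2 ratio of treated cells to the EPSCs of the same set of libraries, in counts scaled to library size (CPM), and the 2-day response was subtracted from the passage 25 (P25) response gene by gene. A positive difference therefore means that a gene stood higher relative to its own EPSCs after 25 passages than after 2 days. Genes entered when all 4 EPSC libraries held at least 1 count, which 16797 did, or when a group of each set of libraries reached a mean of 1 CPM, which added 312. These 17109 measured genes were taken from 25056 tested and 55291 in the count table.

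Both responses came from the wild-type EPSC line mc6-1/Mu-mClover3-10#, kept in LCDM medium before treatment. EPSC libraries 1 and 2 and 2 libraries of EPSCs treated for 2 days (here S1) belong to the first of 2 sets of libraries, which were submitted apart. EPSC libraries 3 and 4, 2 libraries of P25 cells and 2 of passage 38 (P38) cells belong to the second set, as do 2 libraries of mouse embryonic stem cells (mESCs) of the wild-type line 2i-0606-td-ES in 2i/L medium and 2 of these mESCs after 2 days in totipotency medium. The design text names CHIR-99021, a GSK3 inhibitor, Elvitegravir, an antiretroviral integrase inhibitor, PD0325901, a MEK inhibitor, and CD1530, which activates the gamma retinoic acid receptor, as agents added to EPSCs, and describes the 2-day cells as given all small molecules. Whether the 2 libraries of a group are separate cultures is not in the labels, so p-values measure the spread between libraries, which may be technical. Time in the medium and set of libraries changed together between the responses and cannot be told apart.

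EPSCs in LCDM express the core transcription factors of naive pluripotency, which keep each other active and hold back lineage genes. A small share of cells in mouse pluripotent cultures switches on genes of the 2-cell embryo such as the Zscan4 cluster, and cells in that state hold little OCT4 protein. FGF signalling through MEK and ERK primes pluripotent cells for differentiation, the retinoic acid receptors bind as dimers with RXR to repeated short sites and induce Stra8, Cyp26a1, Rarb and Hox genes, and hypoxia-inducible factors together with MYC drive glycolytic genes. DNA methylation keeps germline genes silent and holds the parental marks of imprinted genes.

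The libraries of the 2 sets differed apart from the treatment. Totals ran from 43 to 108 M counts in the first-set libraries used here and from 16.6 to 19.6 M in EPSC libraries 3 and 4 and P25. From 70.2% to 79.6% of the counts of 1 to 10 in the 4 first-set libraries were even, against 40.7% to 42% in EPSC libraries 3 and 4 and P25, so that read mates seem to have been counted separately in the former. Over the series 46 of 52 libraries were mostly even, among them the mESC libraries of the second set, at 68.7% to 72.7%, and the 6 that were not are EPSC libraries 3 and 4, P25 and P38. Of the 3593 annotated tested genes without any count in the 12 libraries of the first set, 97% have all exonic bases inside the span of another gene, against 1.18% of the 20715 annotated genes with a count there. The first set thus seems to have been counted over whole gene spans. Summed CPM of 27 fibroblast markers, which stand for feeder cells, was 723 to 780 in EPSC libraries 1 and 2, 995 to 1020 after 2 days, 1980 in EPSC libraries 3 and 4 and 2850 to 2860 at P25. The sum was 1220 and 1800 at P38, 3540 and 3390 in mESCs and 1950 and 1940 in treated mESCs. Defining genes of fibroblasts were detected in all groups. Of the 26 measured markers 3 were called higher and 7 lower (4 without EPSC library 2 or 2-day library 1), beside 6.71% and 6.3% of all measured genes. The part of these properties in the results below was not tested. In bulk RNA, fewer cells of a type and less RNA per cell cannot be told apart.

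A higher P25 response was called for 1148 genes, 6.71% of those measured, and a lower one for 1078, 6.3%, at an edgeR adjusted p below 0.05 and a log2 difference of at least 1. The 2-day response itself called 3244 genes up (19%) and 2250 down (13.2%), and the P25 response called 2436 up (14.2%) and 1182 down (6.91%). For 14883 genes, 87% of those measured, no difference was called. The median difference was 1.55 over the genes called higher and -1.69 over those called lower, beside 0.04 over all measured genes. Of the genes called higher, 487 had fallen at 2 days with no call at P25, 129 had fallen at both times and fell less at P25, 235 rose at P25 alone, 120 rose at both and 38 had fallen at 2 days and risen at P25. Of the genes called lower, 508 had risen at 2 days alone, 233 rose at both and rose less at P25, 149 fell at P25 alone, 22 fell at both and 29 had risen at 2 days and fallen at P25. The remaining 139 and 137 passed neither single response.

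**Figure D1:**
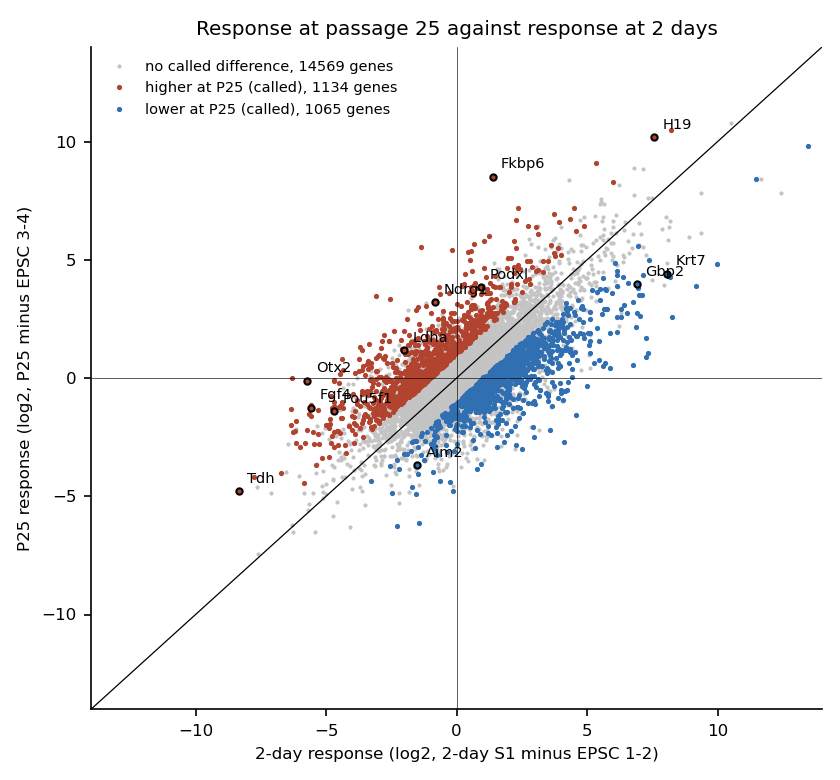
Response to totipotency medium of measured genes with a count in all 4 groups, as log2 ratios to the EPSCs of the same set, after 2 days (x axis) and at P25 (y axis), n = 2 libraries per group. Grey points are 14569 genes with no called difference, red points 1134 called higher and blue points 1065 called lower. Pou5f1 lies at -4.70 and -1.41, Otx2 at -5.72 and -0.11.

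Most pluripotency factors fell at 2 days, and many stood closer to their EPSCs at P25. Of 27 listed factors 26 were measured, 21 fell at 2 days and 16 at P25, and 16 were called higher, against 6.71% of all measured genes, while the other 10 had no call. The median response was -3.10 at 2 days and -1.13 at P25, the median difference was 1.97, and 24 of 26 differences were positive. Pou5f1 was at 277 and 270 CPM in EPSC libraries 1 and 2 and at 10.7 and 10.4 CPM after 2 days, against 909 and 867 CPM in EPSC libraries 3 and 4 and 334 and 334 CPM at P25. Pou5f1 encodes OCT4, the core factor of pluripotency. Every treated library lay below its EPSCs, and the 2-day libraries lay below all others. The difference of responses was 3.29 ± 0.20 (SE, edgeR adjusted p = 3.6e-15), from -4.70 at 2 days and -1.41 at P25.

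Nanog was at 214 and 223 CPM in EPSC libraries 1 and 2 and at 38.2 and 47.2 CPM after 2 days, against 411 and 420 CPM in EPSC libraries 3 and 4 and 496 and 487 CPM at P25. For this homeobox factor of the naive state, the 2-day libraries were low and the P25 libraries lay above their EPSCs, by 0.24 on the log2 scale, which did not pass the test. Klf2, a naive-state zinc finger factor, was at 180 and 178 CPM in EPSC libraries 1 and 2, 21.6 and 21 after 2 days, 206 and 211 in EPSC libraries 3 and 4 and 254 and 257 at P25. The differences were 2.60 ± 0.15 for Nanog and 3.37 ± 0.17 for Klf2, with edgeR adjusted p = 7.1e-16 and 5.6e-17. Esrrb, an orphan nuclear receptor of the naive network, was at 46.9 and 44 CPM after 2 days from 536 and 540, and at 291 and 289 at P25 from 866 and 893, a difference of 1.97 ± 0.17 (SE, edgeR adjusted p = 2.6e-11). The nuclear receptor genes Nr0b1 and Nr5a2 differed by 3.52 ± 0.20 and 3.50 ± 0.24 (edgeR adjusted p = 6.2e-16 and 1.1e-13). Klf4 had no called difference: it was at 162 and 187 CPM and 16.8 and 18.9 after 2 days, and at 420 and 437 and 64.3 and 69.4 at P25, so it fell at both times, with a difference of 0.61 ± 0.31 (SE, edgeR adjusted p = 0.18).

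The gene with the deepest fall on this list was Tdh, the threonine dehydrogenase that feeds one-carbon metabolism in mouse pluripotent cells. Tdh was at 321 and 304 CPM in EPSC libraries 1 and 2 and at 0.978 and 0.929 CPM after 2 days, against 679 and 648 CPM in EPSC libraries 3 and 4 and 23.9 and 24.2 CPM at P25. It was low at both times, and its fall was smaller at P25 by 3.56 ± 0.16 (SE, edgeR adjusted p = 1.7e-18). A share of 39.1% of its exonic bases lies inside another gene, and 31.2% of those of Pou5f1. Tcl1, a coactivator of AKT kinase, went from 18.4 and 23.8 to 0.21 and 0.314 CPM at 2 days and from 59.2 and 58.7 to 15.5 and 14.6 at P25, a difference of 4.39 ± 0.31 (SE, edgeR adjusted p = 2.2e-13). Prdm14, which holds the naive state and represses methyltransferase genes, was at 22.8 and 21.8 CPM at P25, level with 22.3 and 21.2 in its EPSCs, against 0.582 and 1.01 after 2 days from 5.17 and 6.97.

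P38 and mESCs give values that the difference did not use, although P38 shares EPSC libraries 3 and 4 with P25. At P38, 10 of the 26 factors were called down, beside 7.38% of all measured genes down and 12.8% up, and Pou5f1 was at 439 and 403 CPM and Nanog at 691 and 617. In mESCs, which share no library with the 2-day EPSC response, 2 days in the medium called 12 factors down with a median response of -0.81, beside 9.42% of all measured genes down and 15.4% up. The levels went from 630 and 627 to 254 and 257 CPM for Pou5f1 and from 543 and 536 to 741 and 734 for Nanog. When the mESC 2-day response was subtracted from the P25 response in place of the EPSC one, 1 factor was called higher and 4 lower. That comparison called 9.69% of measured genes higher and 7.9% lower.

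**Figure D2:**
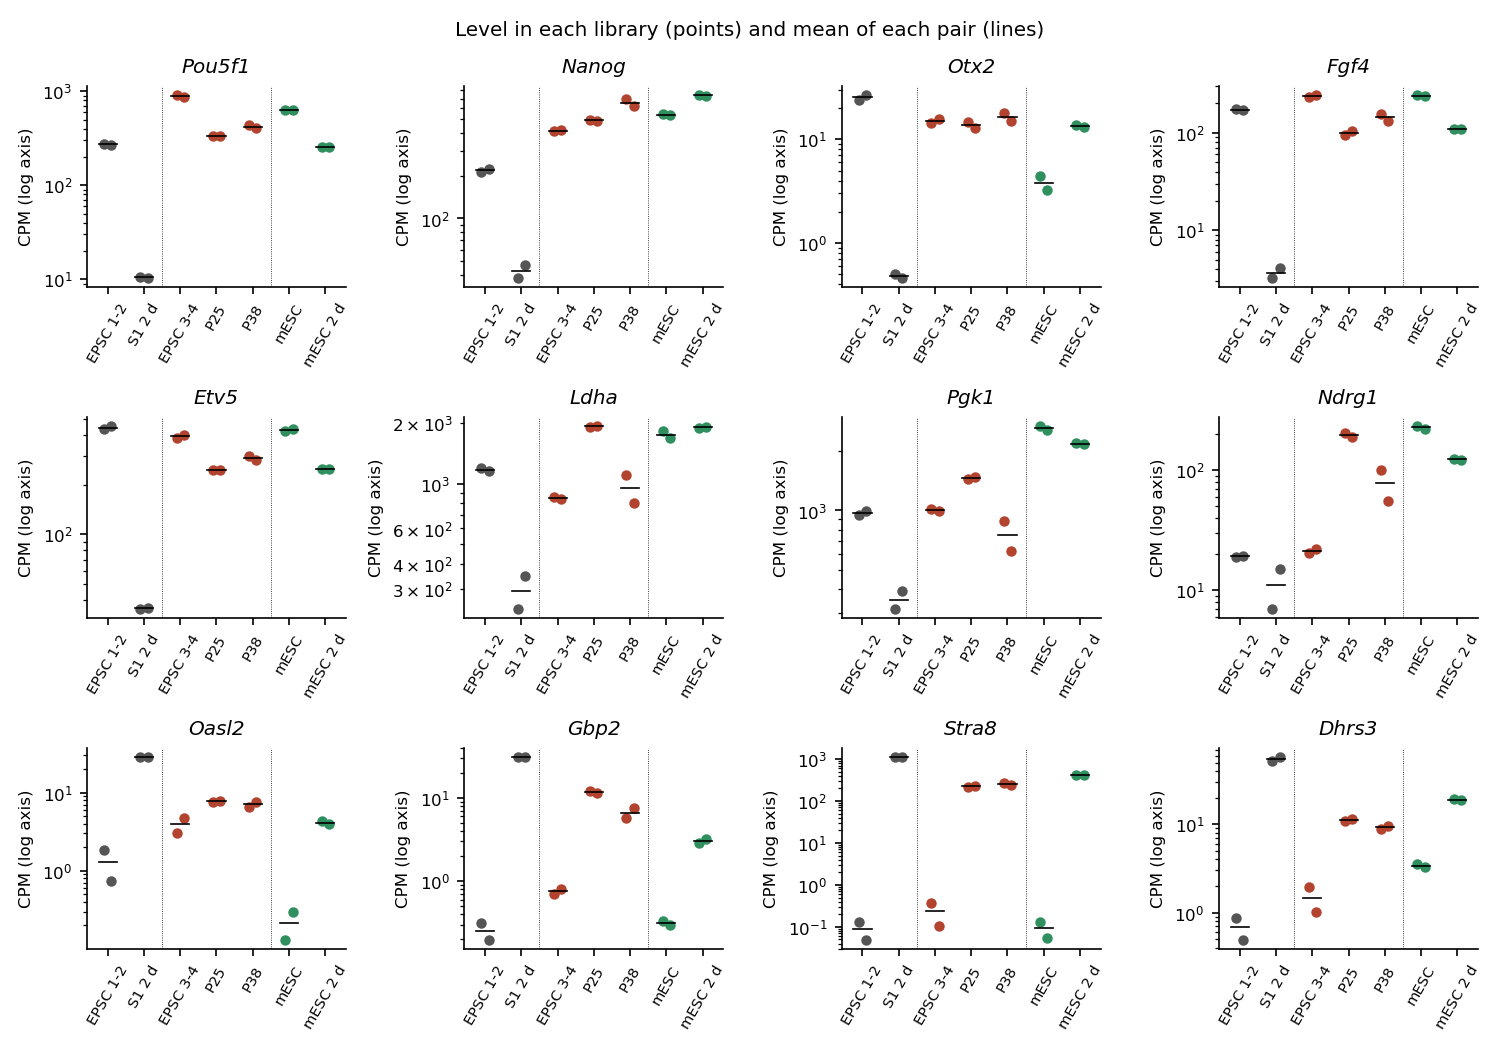
CPM on a log axis in each library (points) of 7 pairs of libraries (EPSC 1 and 2, 2-day S1, EPSC 3 and 4, P25, P38, mESC and 2-day mESC) for 12 genes. Otx2 and Fgf4 are lowest in the 2-day EPSC libraries, at 0.501 and 0.459 and 3.27 and 4.08 CPM, and Oasl2 and Gbp2 are highest there, at 28.2 and 28.4 and 31 and 31.1 CPM.

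Genes of the formative and primed epiblast, the stages between naive pluripotency and gastrulation, were also higher at P25: 13 of 19 measured were called higher, against 6.71% of all measured genes. The other 6 had no call, and the median difference was 1.40. Among the 19, the 2-day response called 3 members up and 10 down, and the P25 response called 4 up and 2 down. Otx2, the homeobox factor that leads the exit from naive pluripotency, had the highest difference of the list. Otx2 was at 24.2 and 26.8 CPM in EPSC libraries 1 and 2 and at 0.501 and 0.459 CPM after 2 days, against 14.3 and 15.6 CPM in EPSC libraries 3 and 4 and 14.8 and 13 CPM at P25. The 2-day libraries were low, and the P25 libraries overlapped their EPSCs. The difference was 5.61 ± 0.23 (SE, edgeR adjusted p = 2.1e-19). In mESCs Otx2 moved the other way at 2 days, from 4.42 and 3.21 to 13.9 and 13.3 CPM. Sox3, a SOX factor of the primed epiblast, went from 2.37 and 2.35 to 10.6 and 11.6 CPM at P25 and from 6.84 and 7.14 to 4.91 and 5.24 at 2 days, and was called higher (edgeR adjusted p = 4.2e-06). Of the 12 members whose EPSC pairs lay within 1 of each other on the log2 scale, 7 were called higher, and 6 of the 19 started lower in EPSC libraries 3 and 4 than in 1 and 2 and 1 higher, where 6.22% and 7.82% of measured genes did. End levels, P25 against 2-day cells, were called higher for 8 members and lower for 2, beside 10.8% and 11.3% of measured genes, and of the 11 members with no exonic base inside another gene 6 had a higher response.

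Of 25 measured targets of FGF and ERK signalling, 17 fell at 2 days and 11 at P25, with 2 up at each time. The difference was called higher for 10 and lower for 1, beside 6.71% and 6.3% of all measured genes. The member called lower was Phlda1, whose end levels met. Median responses were -2.13 at 2 days and -0.80 at P25. Fgf4, the ligand that mouse pluripotent cells make themselves, went from 175 and 171 to 3.27 and 4.08 CPM at 2 days and from 230 and 243 to 94.6 and 104 at P25. The 2-day libraries lay below every other library of the comparison, and the difference was 4.31 ± 0.21 (SE, edgeR adjusted p = 5.6e-18). The ETS factors Etv4 and Etv5, transcribed downstream of ERK, differed by 3.22 ± 0.25 and 2.96 ± 0.14 (edgeR adjusted p = 2.0e-12 and 2.6e-18). Etv5 was at 35.4 and 36 CPM after 2 days from 433 and 453, and at 247 and 246 at P25 from 385 and 401.

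The feedback inhibitors of the pathway did not all differ. Spry4, an inhibitor of receptor signalling, was low at both times, at 1.49 and 1.79 CPM after 2 days from 167 and 174 and at 9.27 and 9.2 at P25 from 142 and 159, and its fall was smaller at P25 by 2.68 ± 0.25 (SE, edgeR adjusted p = 2.3e-10). Dusp6, the ERK phosphatase, was at 27.7 and 24.6 CPM after 2 days from 115 and 115 and at 23.5 and 25.4 at P25 from 98.4 and 95.5. The P25 and 2-day levels of Dusp6 were close, and its difference of 0.14 ± 0.18 (SE, edgeR adjusted p = 0.79) passed no threshold. In mESCs, 10 members were called up and 5 down at 2 days, beside 15.4% and 9.42% of all measured genes, with a median response of 0.54. These mESCs came from 2i/L, a medium that itself holds a MEK inhibitor, and Etv4 was at 5.67 and 5.49 CPM before and 12.1 and 12.4 CPM after treatment. The part of the starting medium in these values was not tested.

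Glycolytic and hypoxia-responsive genes had the highest share of higher calls among the 30 lists plotted. Of 30 measured members 22 were called higher, 2 lower and 6 had no call, beside 6.71% higher and 6.3% lower over all measured genes. The median difference was 1.44, and 27 differences were positive. The 2-day response called 12 members down and 5 up, with a median of -0.83, and the P25 response called 15 up and left the other 15 uncalled, with a median of 0.99. Ldha was at 1190 and 1160 CPM in EPSC libraries 1 and 2 and at 240 and 347 CPM after 2 days, against 859 and 838 CPM in EPSC libraries 3 and 4 and 1920 and 1930 CPM at P25. Ldha encodes lactate dehydrogenase A, which makes lactate from pyruvate. The 2-day libraries lay below and the P25 libraries above all EPSC libraries of their sets, with a difference of 3.18 ± 0.18 (SE, edgeR adjusted p = 6.2e-16). Pgk1 was at 948 and 993 CPM in EPSC libraries 1 and 2 and at 317 and 388 CPM after 2 days, against 1020 and 991 CPM in EPSC libraries 3 and 4 and 1440 and 1480 CPM at P25. Pgk1, phosphoglycerate kinase, fell at 2 days, and its P25 response of 0.54 was below the threshold of 1, with a difference of 2.00 ± 0.16 (SE, edgeR adjusted p = 5.9e-12).

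Along the pathway, the calls covered uptake, the early steps and the late steps. Slc2a1, the glucose transporter GLUT1, rose at both times, from 153 and 164 to 352 and 364 CPM at 2 days and from 275 and 290 to 1880 and 1880 at P25, and rose more at P25 by 1.56 ± 0.14 (SE, edgeR adjusted p = 1.1e-10). A share of 61.3% of its exonic bases lies inside another gene. Slc2a3, the transporter GLUT3, rose at both times to a like degree, from 776 and 842 to 2000 and 2140 CPM and from 1720 and 1780 to 4260 and 4180, with a difference of -0.09 ± 0.16 (SE, edgeR adjusted p = 0.93). Hk2 and Pfkp, the hexokinase and phosphofructokinase of the committed steps, differed by 2.15 ± 0.19 and 2.13 ± 0.19, and Aldoa, Pkm and Pdk1 by 1.97 ± 0.21, 1.77 ± 0.22 and 2.08 ± 0.16 (edgeR adjusted p at most 1.4e-07). Pdk1, which keeps pyruvate out of the mitochondrion, was at 47.4 and 63.1 CPM after 2 days from 343 and 327, and at 189 and 180 at P25 from 255 and 273. Eno3 and P4ha2 were the members called lower, at -1.01 ± 0.17 and -1.10 ± 0.15: P4ha2 loses the call without EPSC library 3 and Eno3 without EPSC library 2 or 4, 2-day library 1 or P25 library 1.

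Ndrg1, Vegfa and Bnip3, targets of hypoxia-inducible factors outside glycolysis, rose at P25. Ndrg1 was at 205 and 189 CPM at P25 from 20.5 and 22.1, at 7 and 15 CPM after 2 days, and below 20 CPM in EPSC libraries 1 and 2. It encodes a stress-responsive protein of the alpha/beta hydrolase family. The P25 libraries stood far above the other 6, the 2 libraries of the 2-day group differed from each other by more than 2-fold, and the difference was 4.02 ± 0.30 (SE, edgeR adjusted p = 8.4e-13). Vegfa, the angiogenic growth factor, went from 50.2 and 53.3 to 130 and 145 CPM at P25 and from 44.9 and 41.2 to 47.5 and 50.5 at 2 days, a difference of 1.22 ± 0.19 (SE, edgeR adjusted p = 4.5e-06). Bnip3, a mitophagy receptor, was at 154 and 140 CPM at P25 from 23.5 and 25.2, against 7.61 and 14.3 from 7.99 and 7.78 at 2 days. P38 stood lower than P25 for these genes: Ldha was at 1100 and 802 CPM and Ndrg1 at 100 and 55.8 CPM. The list had 8 calls up and 1 down at P38, beside 12.8% and 7.38% of all measured genes. In mESCs Ldha was at 1820 and 1680 CPM and at 1900 and 1910 CPM after 2 days, and Ndrg1 at 234 and 223 and 124 and 123 CPM. Of the 17 members with no exonic base inside another gene, 12 were called higher.

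The 250 bases before the start of Ldha and of Pgk1 are shown because both genes were called higher, belong to glycolysis itself and hold the core letters ACGTG of the hypoxia response element. The motif was searched on both strands in the RefSeq promoters of GRCm38.p6, and matches are in capitals, with neighbouring or overlapping matches joined. It occurred in 4477 of 27025 promoters (16.6%) and in 13 of the 27 promoters found for the list. A match is a description of the letters and not a bound site. Ldha lies on the plus strand (chr7:46845554-46845803) with 5 matches and Pgk1 on the plus strand (chrX:106186850-106187099) with 2.
Ldha: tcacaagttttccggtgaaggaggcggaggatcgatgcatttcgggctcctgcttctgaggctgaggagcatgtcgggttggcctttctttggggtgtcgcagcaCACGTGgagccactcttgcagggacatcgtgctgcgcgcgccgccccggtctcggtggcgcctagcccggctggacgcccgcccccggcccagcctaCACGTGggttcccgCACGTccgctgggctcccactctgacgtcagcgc
Pgk1: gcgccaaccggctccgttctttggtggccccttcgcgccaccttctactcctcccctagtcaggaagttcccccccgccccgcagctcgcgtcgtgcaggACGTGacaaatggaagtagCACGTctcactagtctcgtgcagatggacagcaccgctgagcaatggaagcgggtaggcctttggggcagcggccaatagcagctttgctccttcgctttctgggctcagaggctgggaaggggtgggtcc

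**Figure D3:**
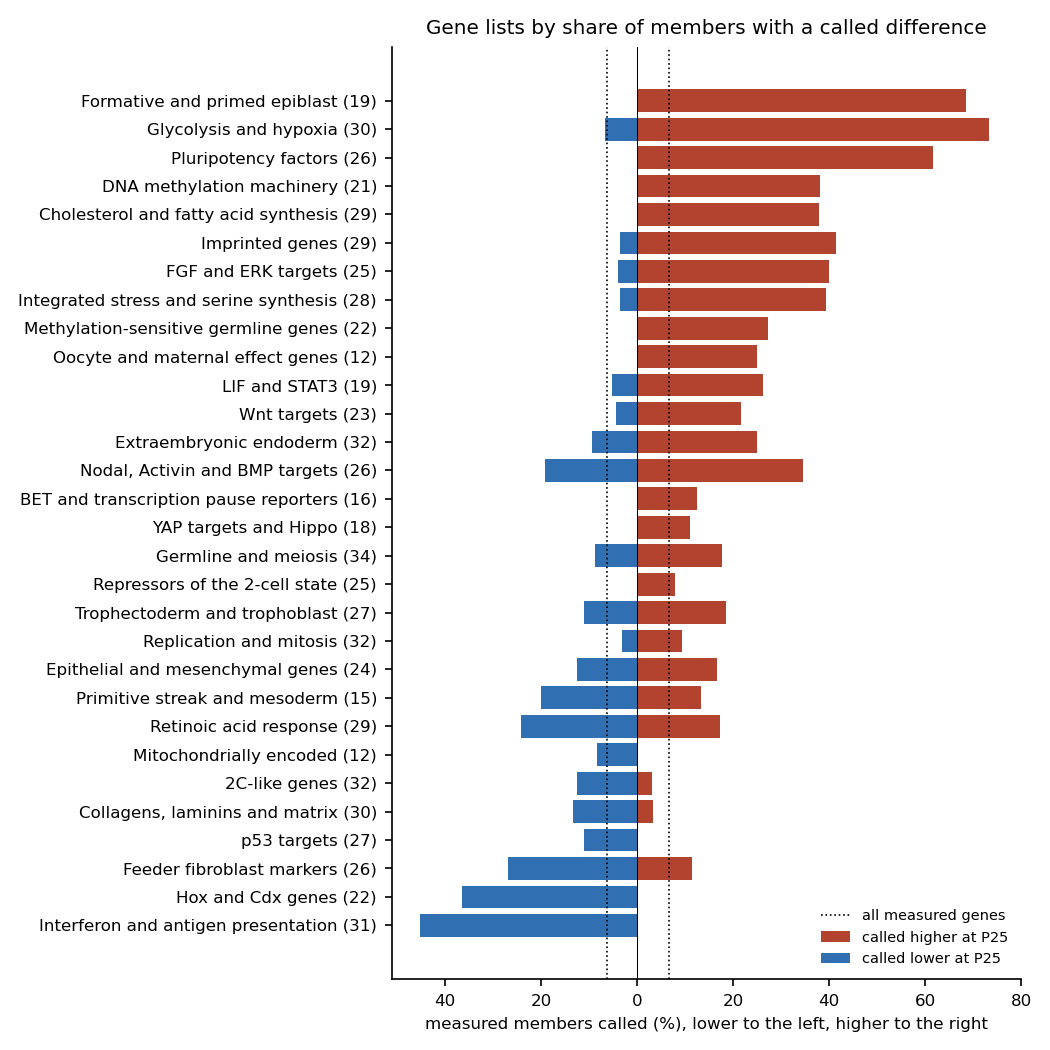
Share of measured members of 30 gene lists called lower (left) and higher (right) in the P25 response against the 2-day response, in percent. Dotted lines mark all measured genes at 6.3% lower and 6.71% higher. The glycolysis and hypoxia list has 22 of 30 members called higher, and the interferon list 14 of 31 called lower.

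Many amino acid and lipid synthesis genes stood higher relative to their EPSCs at P25. Over all measured genes 6.71% were called higher and 6.3% lower. Of 28 measured genes of the integrated stress response and serine synthesis, 11 were called higher and 1 lower. Of 29 of cholesterol and fatty acid synthesis 11 were called higher and the other 18 had no call. At 2 days 18 members of the former and 6 of the latter fell, at P25 6 and 1, and median differences were 0.73 and 0.59. The member called lower, the stress factor gene Atf5, lost its call in 7 of the 8 fits without 1 library (-1.10 to -1.33). Psat1, the phosphoserine aminotransferase of serine synthesis, was at 150 and 138 CPM after 2 days from 604 and 589, and at 422 and 420 at P25 from 594 and 552. Its P25 libraries stood nearer their EPSCs, with a difference of 1.60 ± 0.12 (SE, edgeR adjusted p = 8.4e-13). Chac1, a glutathione-degrading enzyme induced by the stress factor ATF4, went from 28.2 and 28.7 to 5.71 and 4.78 CPM at 2 days and from 42.2 and 36.4 to 56.3 and 53 at P25, a difference of 2.91 ± 0.32 (SE, edgeR adjusted p = 9.1e-09). Asns, the asparagine synthetase that ATF4 also induces, had a difference of -0.20 ± 0.16 (SE, edgeR adjusted p = 0.53). Scd1, the stearoyl-CoA desaturase, was at 131 and 149 CPM after 2 days from 449 and 482 and at 445 and 442 at P25 from 405 and 441, so that the P25 libraries lay just above their EPSCs, with a difference of 1.80 ± 0.14 (SE, edgeR adjusted p = 5.2e-12). Fasn, fatty acid synthase, differed by 1.53 ± 0.19 (SE, edgeR adjusted p = 1.5e-07), while Hmgcs1, an enzyme of the mevalonate pathway, had a difference of -0.04 ± 0.14 with no call. Abca1, the cholesterol exporter, fell at both times and less at P25, with a difference of 2.13 ± 0.27 (SE, edgeR adjusted p = 1.2e-07).

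Among genes of the DNA methylation machinery, 8 of 21 were called higher, against 6.71% of all measured genes, and the other 13 had no call. Tet1, a dioxygenase that oxidises methylated cytosine, was at 62 and 80.2 CPM after 2 days from 791 and 824, and at 297 and 285 at P25 from 740 and 934, a smaller fall by 1.98 ± 0.22 (SE, edgeR adjusted p = 5.9e-09). Tet3 rose at both times and more at P25, by 1.52 ± 0.27 (edgeR adjusted p = 4.6e-05). The de novo methyltransferase Dnmt3b went from 421 and 414 to 117 and 112 CPM at 2 days and from 185 and 205 to 137 and 142 at P25, a difference of 1.39 ± 0.11 (SE, edgeR adjusted p = 1.1e-11). Dnmt3l was at 880 and 939 CPM in EPSC libraries 1 and 2 and at 317 and 253 CPM after 2 days, against 201 and 211 CPM in EPSC libraries 3 and 4 and 359 and 354 CPM at P25. Dnmt3l, the cofactor of de novo methylation, started lower in EPSC libraries 3 and 4 and had no call between its end levels, beside its difference of 2.47 ± 0.20 (SE, edgeR adjusted p = 4.5e-12). Trim28, the corepressor of KRAB zinc finger proteins that protects imprints, differed by 1.14 ± 0.11 (edgeR adjusted p = 9.6e-10). The maintenance genes Dnmt1 and Uhrf1 had differences of 0.31 ± 0.22 and 0.33 ± 0.12 with no call. Dppa3, a maternal protein that keeps UHRF1 from chromatin, was at 8.41 and 8.67 CPM after 2 days from 23.1 and 21.9 and at 27.7 and 25.4 at P25 from 12 and 13.1, below its EPSCs at 2 days and above them at P25, with a difference of 2.48 ± 0.29 (SE, edgeR adjusted p = 3.7e-08). Of the 16 members whose EPSC pairs lay within 1 on the log2 scale, 4 were called higher, and of the 13 with no exonic base inside another gene 5 were. End levels were called higher at P25 for 5 of 21, beside 10.8% of all measured genes.

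Of the imprinted genes, 10 of 29 rose at 2 days and 16 at P25, where 19% and 14.2% of all measured genes did. Of the 29 measured members 12 were called higher and 1 lower, beside 6.71% and 6.3% of all measured genes. The lower call was lost without EPSC library 1 or 3 or 2-day library 2. Median responses were 0.50 at 2 days and 1.52 at P25. H19 was at 6.59 and 6.36 CPM in EPSC libraries 1 and 2 and at 1270 and 1180 CPM after 2 days, against 5.99 and 6.31 CPM in EPSC libraries 3 and 4 and 7140 and 7200 CPM at P25. H19 is the maternally expressed noncoding RNA of the Igf2 locus. All treated libraries were far above their EPSCs, the P25 libraries were the highest, and the difference was 2.63 ± 0.38 (SE, edgeR adjusted p = 1.4e-06). P38 stood at 4150 and 5220 CPM and treated mESCs at 743 and 767 CPM. Slc38a4, an imprinted amino acid transporter gene, went from 1.82 and 2.61 to 665 and 662 CPM at 2 days and from 0.755 and 0.695 to 1030 and 1030 at P25, a difference of 2.24 ± 0.25 (SE, edgeR adjusted p = 1.3e-08). For Peg10, a gene of retrotransposon origin needed in placenta, the starting levels carried the difference. It was at 1180 and 1220 CPM in EPSC libraries 1 and 2 and 186 and 221 in 3 and 4, and at 5910 and 6350 after 2 days and 5040 and 4980 at P25, so that the difference of 2.27 ± 0.20 (SE, edgeR adjusted p = 3.2e-11) stands beside an end level that was slightly lower at P25. Over the list, 9 of 29 started lower in EPSC libraries 3 and 4 and 1 higher, beside 6.22% and 7.82% of all measured genes. End levels were called higher at P25 for 4 members and lower for 2, beside 10.8% and 11.3%. Of the 19 members with EPSC pairs within 1 on the log2 scale, 5 were called higher, and of the 11 with no exonic base inside another gene 7 were.

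Most measured germline genes rose at both times, beside 19% of all measured genes at 2 days and 14.2% at P25. Members near 0 in EPSCs could enter through the treated groups alone, which partly sets these counts of rises. Of 32 listed genes that DNA methylation silences in somatic cells 22 were measured, 9 of them with a mean of 1 CPM in both EPSC pairs. Of the 22, 19 rose at 2 days and 18 at P25. The difference was called higher for 6, and the other 16 had no call. This count was 3 without EPSC library 4 and 11 with limma. Of 34 genes of germ cells and meiosis 21 rose at 2 days and 22 at P25, with 6 called higher (10 with the 8 libraries fitted alone) and 3 lower. Over all measured genes 6.71% were called higher and 6.3% lower. Fkbp6 was at 0.355 and 0.665 CPM in EPSC libraries 1 and 2 and at 1.26 and 1.38 CPM after 2 days, against 0.162 and 0.107 CPM in EPSC libraries 3 and 4 and 50.7 and 50.3 CPM at P25. Fkbp6, a cochaperone of the piRNA pathway, stood out at P25 with a difference of 7.15 ± 0.67 (SE, edgeR adjusted p = 2.4e-10), and was at 45.5 and 59.9 CPM at P38. In mESCs it was at 21.5 and 22.3 CPM before and 20 and 20 CPM after treatment. Hormad1, a protein of the meiotic chromosome axis, went from 4.11 and 3.3 to 5 and 6.16 CPM at 2 days and from 2.81 and 2.56 to 13.8 and 15.1 at P25, a difference of 1.84 ± 0.34 (SE, edgeR adjusted p = 9.8e-05). Rec8, the meiotic cohesin subunit, did the reverse. Rec8 was at 15.5 and 13.8 CPM in EPSC libraries 1 and 2 and at 189 and 181 CPM after 2 days, against 18.2 and 15.2 CPM in EPSC libraries 3 and 4 and 35.6 and 38.6 CPM at P25. The 2-day libraries were the highest, and the difference was -2.50 ± 0.15 (SE, edgeR adjusted p = 7.3e-15). Meioc, a partner of meiotic mRNA regulators, was likewise at 86.9 and 95.7 CPM after 2 days and 18.5 and 17.3 at P25, a difference of -1.69 ± 0.31 (SE, edgeR adjusted p = 7.6e-05). Sohlh2, a basic helix-loop-helix factor of early germ cells, rose alike at both times, with a difference of 0.02 ± 0.18 (SE, edgeR adjusted p = 1).

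Genes of the 2-cell-like state were high at both times and mostly at lower levels at P25. Of 46 listed genes 32 were measured, and 7 of these had a mean of 1 CPM in both EPSC pairs. Members near 0 in EPSCs could enter through the treated groups alone, which partly sets the counts of rises. Of the 32, 27 were called up at 2 days and 28 at P25, and 28 were called up at P38 and in mESCs. Of all measured genes 19% were called up at 2 days, 14.2% at P25, 12.8% at P38 and 15.4% in mESCs. The difference of responses was called lower for 4 and higher for 1, beside 6.3% and 6.71% of all measured genes. But EPSC levels were at or near 0: for 12 of the 32 members no bound could be set for the difference, and for 9 it is only a bound. The count of 4 was 2 without EPSC library 3, 7 with DESeq2 and 18 with limma. End levels, which do not use the EPSCs, were called lower at P25 for 26 of 32 and higher for 2, where 11.3% and 10.8% of measured genes were. The 2 sets also differ in that comparison. Zscan4c, which encodes a zinc finger protein of telomere maintenance, was at 429 and 463 CPM after 2 days with no count in EPSC libraries 1 and 2, and at 89.3 and 94 CPM at P25, with 0 and 0.0534 CPM in EPSC libraries 3 and 4. Its near-identical neighbour Zscan4d was at 444 and 484 CPM after 2 days and 64.8 and 66.8 at P25, and at 45.5 and 62.4 at P38 and 35.2 and 36.1 in treated mESCs. Reads of these copies can be split between them in the authors' counting, so the level of each is uncertain. Zfp560 has enough counts in EPSCs to place its difference. Zfp560 was at 3.29 and 2.91 CPM in EPSC libraries 1 and 2 and at 127 and 134 CPM after 2 days, against 3.83 and 2.78 CPM in EPSC libraries 3 and 4 and 15.4 and 12.8 CPM at P25. It rose at both times and less at P25, by -3.30 ± 0.26 (SE, edgeR adjusted p = 2.6e-12). Zfp352, a zinc finger gene of retrotransposon origin, was at 49.8 and 56.5 CPM after 2 days and 12.5 and 13.9 CPM at P25.

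Retinoic acid targets split. Of 29 measured 5 were called higher, 7 lower and 17 had no call, beside 6.71% higher and 6.3% lower over all measured genes. The single responses called 20 up at 2 days and 21 at P25, beside 19% and 14.2% of all measured genes. Here too members near 0 in EPSCs could enter through the treated groups alone. The higher calls include Rarb, which has no count in EPSC libraries 3 and 4, and fall to 3 without EPSC library 3. End levels were called lower at P25 for 11 members and higher for 4, beside 11.3% and 10.8% of all measured genes. Dhrs3 was at 0.866 and 0.493 CPM in EPSC libraries 1 and 2 and at 52 and 57.7 CPM after 2 days, against 1.94 and 1.02 CPM in EPSC libraries 3 and 4 and 10.8 and 11.5 CPM at P25. Dhrs3 encodes a retinaldehyde reductase that limits retinoic acid. All treated libraries were above their EPSCs, those of 2 days the most, and the difference was -3.40 ± 0.41 (SE, edgeR adjusted p = 5.1e-08). Stra8, the gatekeeper of meiosis, was at 1110 and 1090 CPM after 2 days and 221 and 223 at P25, from 0.133 and 0.0493 and 0.378 and 0.107 CPM, and reached 416 and 424 CPM in mESCs. Its difference of -3.65 ± 0.73 (SE, edgeR adjusted p = 2.2e-04) became -2.50 and lost its call without EPSC library 3. Nr2f2, an orphan nuclear receptor gene, went from 0.488 and 1.48 to 31.8 and 32.7 CPM at 2 days and from 2.27 and 2.67 to 9.16 and 9.26 at P25, a difference of -3.15 ± 0.44 (SE, edgeR adjusted p = 9.2e-07).

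The receptors and the degrading enzyme behaved otherwise. Rarg, the receptor that CD1530 activates, was at 111 and 114 CPM in EPSC libraries 1 and 2 and 29.8 and 30.2 in 3 and 4, and ended at 51.6 and 45.6 after 2 days and 45.4 and 46.7 at P25. End levels met, and the difference of 1.83 ± 0.27 (SE, edgeR adjusted p = 1.8e-06) came with the lower start of EPSC libraries 3 and 4. Rarb, the receptor beta gene and a direct target, was at 13.1 and 13.4 CPM after 2 days from 0.488 and 0.69, and at 4.2 and 5.13 at P25 with no count in EPSC libraries 3 and 4. Its end level was lower at P25 (-1.51 on the log2 scale), no difference of responses is given for want of a count, and another gene's span covers 38.4% of its exonic bases. Cyp26a1, which degrades retinoic acid, was at 9.4 and 8.65 CPM after 2 days and 8.35 and 8.73 at P25, close to each other, from 0.178 and 0.0493 and 0 and 0.0534 CPM. With 1 count in EPSC libraries 3 and 4 its difference, which had no call, is not given. In mESCs 24 of the 29 were called up and 1 down, beside 15.4% and 9.42% of all measured genes.

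Upstream bases of Rarb and Cyp26a1 are shown because these were the only list members with the direct repeat GTTCANNNNNNGTTCA, the element with 5 bases between its repeats that retinoic acid receptors bind. Searched on both strands, it occurred in 18 of 27025 promoters (0.0666%) and in 2 of the 23 found for the list. Rarb lies on the minus strand (chr14:16575477-16575726) and Cyp26a1 on the plus strand (chr19:37697558-37697807), and capitals mark the repeat.
Rarb: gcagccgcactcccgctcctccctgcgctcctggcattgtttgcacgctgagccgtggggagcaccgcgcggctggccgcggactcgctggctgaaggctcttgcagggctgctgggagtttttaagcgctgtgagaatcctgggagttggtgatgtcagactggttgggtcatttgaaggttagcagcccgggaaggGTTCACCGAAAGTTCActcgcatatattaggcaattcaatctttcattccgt
Cyp26a1: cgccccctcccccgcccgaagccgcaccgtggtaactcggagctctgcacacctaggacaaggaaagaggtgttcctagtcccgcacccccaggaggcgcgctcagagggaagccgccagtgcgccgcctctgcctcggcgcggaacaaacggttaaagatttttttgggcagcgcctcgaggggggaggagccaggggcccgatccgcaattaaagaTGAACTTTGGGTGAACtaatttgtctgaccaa

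Hox genes pattern the body axis. Of 41 listed Hox and Cdx genes 22 were measured, and 19 of these rose at each time, beside 19% and 14.2% of all measured genes. Members near 0 in EPSCs could enter through the treated groups alone, which partly sets these counts of rises. The difference was called lower for 8, against 6.3% of all measured genes, and the other 14 had no call, with median responses of 3.93 and 2.61. Hoxb8 was at 11 and 11.7 CPM after 2 days and 2.25 and 2.3 at P25, from 0.133 and 0.0493 and 0.486 and 0.534 CPM, a difference of -4.73 ± 0.75 (SE, edgeR adjusted p = 9.1e-06). Hoxc4 was at 24.2 and 23.2 CPM after 2 days from 1.02 and 1.58, and at 3.58 and 3.42 at P25 from 1.67 and 1.44, a difference of -3.02 ± 0.37 (SE, edgeR adjusted p = 6.6e-08). Hoxb9 differed by -2.26 ± 0.34 (SE, edgeR adjusted p = 3.6e-06). The 2-day libraries were the highest for each of these genes. Where the EPSC pairs lay within 1 on the log2 scale, 3 of 11 members were called lower, and 3 of 4 where both pairs had a mean of 1 CPM. End levels were called lower at P25 for 8 of 22, beside 11.3% of all measured genes.

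Of the interferon and antigen presentation genes, 18 of 31 rose at 2 days and 5 at P25, beside 19% and 14.2% of all measured genes. Of the 31 measured members 14 were called lower, against 6.3% of all measured genes, and the other 17 had no call, with 2 positive differences and a median of -1.26. A further 1 fell at 2 days and 5 at P25, beside 13.2% and 6.91% of all measured genes, and median responses were 1.18 and -0.02. Oasl2 was at 1.86 and 0.739 CPM in EPSC libraries 1 and 2 and at 28.2 and 28.4 CPM after 2 days, against 3.07 and 4.76 CPM in EPSC libraries 3 and 4 and 7.63 and 7.85 CPM at P25. Oasl2 belongs to the 2'-5' oligoadenylate synthetase family of antiviral genes. The 2-day libraries stood above all others, and the difference was -3.44 ± 0.33 (SE, edgeR adjusted p = 3.7e-10). Gbp2, an interferon-induced GTPase, went from 0.311 and 0.197 to 31 and 31.1 CPM at 2 days and from 0.701 and 0.802 to 12.2 and 11.4 at P25, a difference of -2.93 ± 0.48 (SE, edgeR adjusted p = 1.6e-05). The class I histocompatibility gene H2-K1 was at 270 and 225 CPM after 2 days from 42.2 and 41.9 and at 106 and 110 at P25 from 53.5 and 57.2, and H2-D1 was at 121 and 93.2 from 32.4 and 33.2 and at 45.8 and 44.4 from 44.6 and 46.5. Their differences were -1.59 ± 0.13 and -1.73 ± 0.21 (edgeR adjusted p = 7.3e-12 and 7.4e-08). Irf1, a transcription factor induced by interferon gamma, differed by -1.26 ± 0.19 (SE, edgeR adjusted p = 2.4e-06).

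Starting levels also differed for this list: 12 of 31 members started higher in EPSC libraries 3 and 4, and 1 lower, beside 7.82% and 6.22% of all measured genes. Where the pairs lay within 1 on the log2 scale, 7 of 17 were called lower, beside 600 of 13469 measured genes. Where no exonic base lay inside another gene 7 of 18 were, beside 683 of 10666. End levels were called lower at P25 for 9 and higher for 3, beside 11.3% and 10.8% of all measured genes. At P38 4 members were called up and 6 down, where 12.8% and 7.38% of all measured genes were, and in mESCs 7 up and 6 down, where 15.4% and 9.42% were. Oasl2 was at 6.59 and 7.67 CPM at P38 and went from 0.131 and 0.299 to 4.29 and 3.93 CPM in mESCs.

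Gbp2 and Gbp3 are shown because both were called lower and lie in the same cluster on chromosome 3 with the letters GAAANNGAAA, the paired site bound by interferon regulatory factors. Gbp3 was at 6.64 and 5.99 CPM after 2 days and 3.38 and 3.13 at P25, from 0.266 and 0.148 and 1.19 and 0.802 CPM. On both strands the letters occurred in 821 of 27025 promoters (3.04%) and in 9 of the 23 found for the list. Both genes are on the plus strand (Gbp2 chr3:142620413-142620662, Gbp3 chr3:142559794-142560043), and capitals mark the matches.
Gbp2: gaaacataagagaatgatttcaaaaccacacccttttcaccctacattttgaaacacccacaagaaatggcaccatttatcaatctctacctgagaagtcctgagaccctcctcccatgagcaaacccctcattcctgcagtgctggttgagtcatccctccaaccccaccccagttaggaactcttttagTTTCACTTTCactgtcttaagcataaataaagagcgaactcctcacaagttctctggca
Gbp3: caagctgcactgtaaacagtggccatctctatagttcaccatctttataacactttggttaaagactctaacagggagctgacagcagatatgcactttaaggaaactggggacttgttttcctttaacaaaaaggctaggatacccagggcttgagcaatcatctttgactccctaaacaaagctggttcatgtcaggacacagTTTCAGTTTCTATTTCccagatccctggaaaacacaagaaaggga

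**Figure D4:**
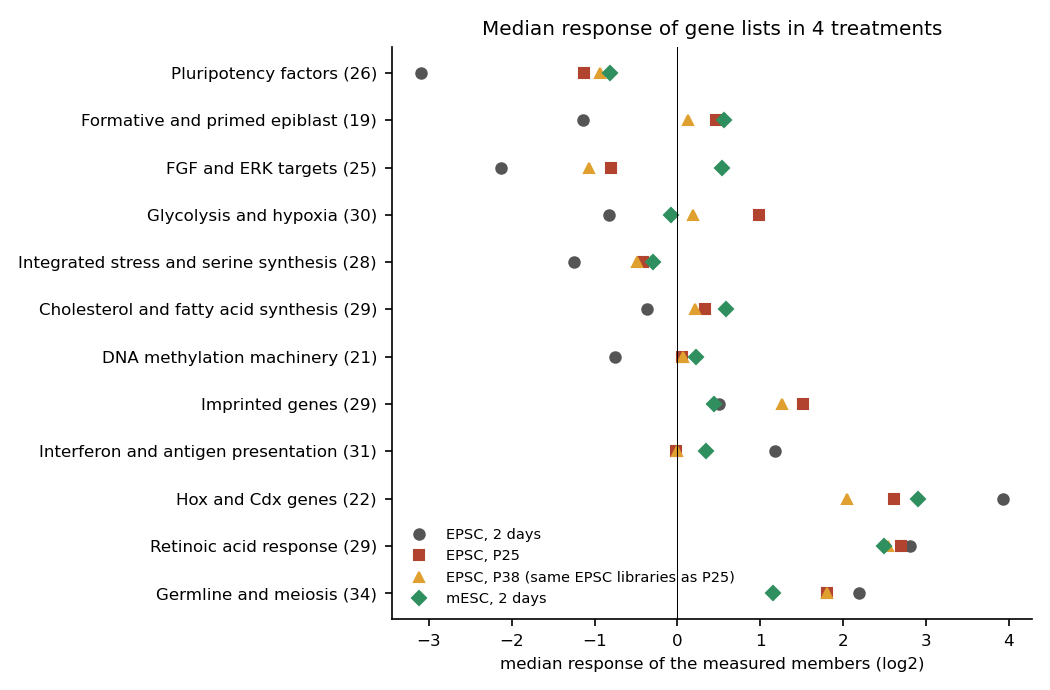
Median response on the log2 scale over the measured members of 12 gene lists, in EPSCs after 2 days, at P25 and at P38 (both against EPSC libraries 3 and 4) and in mESCs after 2 days. Points are medians over genes, with no error. Pluripotency factors stand at -3.10, -1.13, -0.93 and -0.81, and interferon genes at 1.18, -0.02, -0.01 and 0.34.

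Against the mESC 2-day response, whose libraries belong to the same set as P25 but to another line and starting medium and had mostly even counts like the first set, the lists had other counts. Over all measured genes 9.69% were called higher and 7.9% lower there, against 6.71% and 6.3% in the EPSC comparison. The glycolysis and hypoxia list had 13 of 30 members called higher, the imprinted genes 12 of 29 higher and 2 lower, and the methylation-sensitive germline genes 11 of 22 higher and 1 lower. Of the FGF and ERK targets 2 were called higher and 9 lower, of the formative genes 5 and 4, and of the interferon genes 3 and 5. Hox and Cdx genes had 2 called lower, against 8 in the EPSC comparison. Higher calls numbered 1 of 29 for cholesterol and fatty acid synthesis, 4 of 28 for stress and serine synthesis and 4 of 21 for the methylation machinery, against 11, 11 and 8 in the EPSC comparison. They numbered 18 of 32 for extraembryonic endoderm and 16 of 27 for trophectoderm, against 8 and 5. Both comparisons use the P25 libraries and EPSC libraries 3 and 4, so their counts are given side by side and not as independent results.

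Lineage genes moved less uniformly. Of 32 measured genes of extraembryonic endoderm 8 were called higher and 3 lower (1 without EPSC library 3), beside 6.71% and 6.3% of all measured genes. End levels were called higher at P25 for 14 of the 32, beside 10.8% of all measured genes. The count of 8 became 4 without EPSC library 1, 5 without EPSC library 4 and 5 without P25 library 2. Gata6, the factor that specifies primitive endoderm, was at 1.44 and 1.53 CPM and 3.5 and 2.98 after 2 days, and at 1.29 and 1.34 and 16.1 and 15.9 at P25. The 2-day libraries lay above their EPSCs and the P25 libraries lay further above theirs, with a difference of 2.47 ± 0.28 (SE, edgeR adjusted p = 1.5e-08), and P38 was at 9.49 and 13.1 CPM. Lrp2, the endocytic receptor megalin of visceral endoderm, rose at both times and more at P25, by 1.57 ± 0.30 (SE, edgeR adjusted p = 1.3e-04). Sparc, a matrix protein of parietal endoderm, rose from 331 and 368 to 1270 and 1100 CPM at 2 days and stood at 634 and 645 at P25 from 457 and 422, a difference of -1.22 ± 0.15 (SE, edgeR adjusted p = 1.1e-07).

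Of 27 measured trophectoderm genes 5 were called higher and 3 lower, beside 6.71% and 6.3% of all measured genes. The median difference was 0.08, and keratins went both ways. Krt7 was at 0.311 and 0.493 CPM in EPSC libraries 1 and 2 and at 124 and 90.6 CPM after 2 days, against 1.83 and 1.6 CPM in EPSC libraries 3 and 4 and 39.2 and 34.1 CPM at P25. For this epithelial keratin the 2-day libraries were highest, and the difference was -3.65 ± 0.41 (SE, edgeR adjusted p = 1.3e-08). Krt19 was at 82.9 and 66.9 CPM after 2 days from 2.18 and 2.93, and at 168 and 181 at P25 from 2.1 and 1.92, a difference of 1.56 ± 0.33 (SE, edgeR adjusted p = 5.5e-04). Krt18, a keratin of simple epithelia, had a difference of -0.17 ± 0.21 (SE, edgeR adjusted p = 0.76). Among 26 measured genes of Nodal, Activin and BMP signalling 9 were called higher and 5 lower. Bmp4, a ligand, fell from 59 and 63.8 to 2.77 and 2.8 CPM at 2 days and from 24.1 and 23.7 to 9.42 and 11.4 at P25, a smaller fall by 3.26 ± 0.26 (SE, edgeR adjusted p = 3.5e-12). The Nodal inhibitors Lefty1 and Lefty2 were called lower, at -2.19 ± 0.27 and -2.62 ± 0.19, but each started higher in EPSC libraries 3 and 4 and ended no lower at P25: Lefty2 was at 7.1 and 5.03 and 12.9 and 17.4 CPM in the first set and at 226 and 222 and 89.6 and 92 CPM in the second.

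Of the genes called in opposite directions, 29 rose and 38 fell at 2 days, with Ldha among the latter. Starting levels were called higher in EPSC libraries 3 and 4 for 18 of the 29 and lower there for 21 of the 38. Vwa3b, which encodes a protein with a von Willebrand factor A domain, went from 10.9 and 11.5 to 1.7 and 2.08 CPM at 2 days and from 2.16 and 2.83 to 7.22 and 7.43 at P25, a difference of 4.13 ± 0.29 (SE, edgeR adjusted p = 2.1e-13). Its starting levels also differed between the sets. Podxl, the sialomucin podocalyxin, had a called response at P25 and none at 2 days. Podxl was at 54.1 and 54.9 CPM in EPSC libraries 1 and 2 and at 107 and 102 CPM after 2 days, against 17.2 and 17.5 CPM in EPSC libraries 3 and 4 and 257 and 244 CPM at P25. The P25 libraries were the highest, and the difference was 2.91 ± 0.18 (SE, edgeR adjusted p = 1.3e-14). Aim2, a sensor of cytosolic DNA, fell at both times and more at P25, from 108 and 108 to 38.1 and 38 CPM and from 84.3 and 84.2 to 5.99 and 7.08, a difference of -2.19 ± 0.15 (SE, edgeR adjusted p = 1.6e-13). Aire, the autoimmune regulator, fell from 63.4 and 63 to 4.03 and 5.41 CPM at 2 days and stood at 59 and 60.5 at P25 from 31.1 and 37.9, a difference of 4.54 ± 0.29 (SE, edgeR adjusted p = 2.3e-14).

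The called differences can lie in where the cells ended, where they started, or both. Of the 1148 genes called higher, 615 also had end levels called in the same direction, without starting levels called in the opposite direction. A further 203 had starting levels called in the opposite direction without such a call of end levels, 70 had both and 260 neither. Of the 1078 called lower the numbers were 469, 325, 61 and 223. Genes whose starting levels were called in the same direction as the difference were not counted apart. Mean log2 CPM of the EPSC pairs correlated with r = 0.956 across measured genes and that of 2-day and P25 cells with r = 0.929, and the SD of the difference was 1.01 at the start and 1.21 at the end. These are correlations across genes, which are not independent replicates. Restricting the count to genes whose EPSC pairs lay within 1 on the log2 scale left 789 higher and 600 lower of 13469. Among the 10666 genes with no exonic base inside another gene, 746 were called higher and 683 lower.

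Of the genes with the longest spans a larger share was called lower than of all measured genes. Among 813 measured genes that span over 200 kb, 14.4% were called lower and 8.36% higher, with a median difference of -0.16, while among 3206 genes of up to 5 kb 3.68% were called lower and 5.49% higher. Median responses in the longest class were 0.58 at 2 days, 0.3 at P25 and 0.56 in mESCs. Of the 12 called genes with the lowest differences at 10 CPM or more, 6 span over 200 kb. Nav3, a neuron navigator gene of 775 kb, was at 35.8 and 41.6 CPM after 2 days from 0.355 and 0.345, and at 1.74 and 2.36 at P25 from 1.83 and 0.962, a difference of -6.23 ± 0.83 (SE, edgeR adjusted p = 3.4e-07). Myo16, an unconventional myosin gene of 481 kb, differed by -6.10 ± 0.91 (SE, edgeR adjusted p = 2.7e-06). These genes were high in the 2-day libraries alone of the comparison. The part of the first set's counting over gene spans in these values was not tested.

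**Figure D5:**
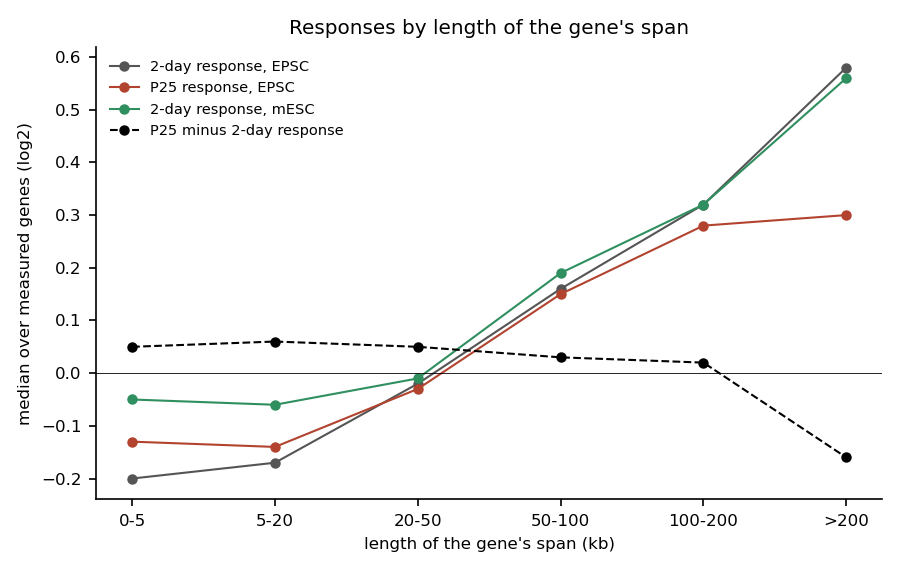
Median response on the log2 scale over measured genes in 6 classes of gene span in kb, for EPSCs after 2 days, P25 and mESCs after 2 days, with no error. Medians run from -0.2, -0.13 and -0.05 in genes of up to 5 kb to 0.58, 0.3 and 0.56 in genes over 200 kb.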

How the data were processed

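Messenger RNA was sequenced in 52 mouse libraries, of which 8 enter the comparison and 6 more are set beside it. The submitters' processing notes name Trimmomatic 0.39, STAR 2.7.10b, featureCounts 2.0.6 and the build mm10. Annotation, strand setting and handling of mates remain not given in the sources used here, and without strand a gene and an overlapping one cannot be told apart. The authors deposited raw counts per gene, with no scaling seen in the values. Counts in the 8 libraries totalled 16.6 to 108 M.

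Genes passing filterByExpr were scaled by TMM and fitted in 1 edgeR 4.0.16 quasi-likelihood model with 26 group means (R 4.3.3). The contrast was the P25 response minus the 2-day response, with Benjamini-Hochberg adjustment over 25056 genes, and each SE is the difference divided by the square root of F. Spans, overlaps and coordinates came from GENCODE M21, matched to 53180 symbols, and promoter letters from RefSeq. In counts simulated for the 8 libraries with 1 fixed spread, the script recovered changes placed in well-counted genes. Genes near 0 in EPSCs and the fit of all 52 libraries were not checked in this way. Alternatives used RLE factors, no filter, DESeq2 1.42.0, limma 3.58.1, fewer libraries or genes, halved counts and a replicate block. Replicate numbers did not pair the libraries: deviations of same-numbered libraries correlated with r = -0.0335 and -0.0394 over 11806 genes.

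Genes and the 32 lists were chosen with earlier results of these data known. Named genes were the 12 highest and 12 lowest called differences at 10 CPM or more, key and leading called members of each list, and up to 4 genes of each class of responses. The text names a part of them, and some are not reported here. Atf5, Eno3, P4ha2, Pkm, Slc2a3 and Gbp3 fall outside this rule and were chosen after their values were seen. Lists were described by counts and medians, with no set test.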

Additional observations from a re-analysis of the deposited data

Results flagged for a closer look

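The responses of the 2 times differed by the test of the difference itself for 1148 genes called higher and 1078 called lower at P25. In 29 genes the 2-day response was called up and the P25 response down, and in 38 genes the 2-day response was called down and the P25 response up. Time in the medium and set of libraries changed together, and their parts in these counts cannot be told apart.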

How the results depend on the processing

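The counts of 1148 higher and 1078 lower calls stayed within 1.5 times under RLE factors, no filter, DESeq2, limma, the 8 libraries alone, p-values adjusted over measured genes, halved counts and a mean of 1 CPM in both EPSC pairs. Without each library in turn they ran from 982 to 1113 and from 897 to 1042. The replicate block gave 1292 higher and 1359 lower and changed no call among the 90 genes named here, and neither did RLE factors or DESeq2. End levels, with no EPSC libraries, called 1852 higher and 1932 lower. Among named genes with a call in that comparison or the main one, the sign turned for Lefty1 (1.49), Lefty2 (2.59), Peg10 (-0.29), Phlda1 (0.01), Rarb (-1.51), Rarg (-0.08) and Slc2a3 (1.03), and 12 further genes lost their call. The cause was not tested. Fewer genes were counted where the EPSC pairs lay within 1 on the log2 scale, with 789 higher and 600 lower, and where no exonic base lay inside another gene, with 746 and 683. Chosen after seeing the data, a minimum of 10 counts in each group left 1074 and 982, and a span of up to 200 kb left 1062 and 950. The mESC response in place of the EPSC 2-day response, also added then, called 1658 higher and 1352 lower. Of the 90 genes 31 were called in the same direction in both comparisons or called in neither. A further 23 kept their sign and lost the call, and 36 had the other sign with a call in at least 1 comparison. With 2 libraries per group and 16.6 to 19.6 M counts in EPSC libraries 3 and 4 and P25, differences of genes near 0 in EPSCs have wide errors.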

Other observations

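Rhox5, a homeobox gene of the X chromosome, was at 0.154 CPM in P25 library 1 and at 92.7 CPM in P25 library 2, with no count in either P38 library and 6.13 and 5.08 CPM after 2 days. Its difference of responses was not called.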
